A study of Mus musculus with 6 samples.

Results

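The 35 genes described here encode the enzymes of the tricarboxylic acid (TCA) cycle, the isozymes that run next to it, and the proteins that carry pyruvate into mitochondria and convert it there. They were taken by symbol from a table of 19445 gene loci, 33 under the listed symbol and the mitochondrial pyruvate carrier genes *Mpc1* and *Mpc2* under their older symbols *Brp44l* and *Brp44*. The rule that lists them uses symbols alone, and none of them had more than 1 row. RNA-Seq was done on inguinal white adipose tissue (iWAT), the subcutaneous fat pad of the groin, from 3 *Hlx* transgenic mice and 3 wild-type littermates, with 1 library per mouse. The transgenic mice carry a full-length cDNA of the homeobox gene *Hlx* behind the *aP2* (*Fabp4*) promoter, which is active in adipocytes. They were made in C57BL/6 and SJL hybrid embryos and backcrossed to C57BL/6, and the number of transgenic lines used for RNA-Seq was not given in the sources used here. All 6 mice were 12 weeks old, no treatment was given to either genotype, and the comparison asks how added *Hlx* changes gene expression in this fat pad. Values are FPKM, a read density per transcript length and mapped reads, so levels of different genes can be set side by side.

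*Hlx* itself was at 109.7, 79.6 and 99.5 FPKM in transgenic mice 1, 2 and 3 and at 6.88, 7.35 and 8.14 FPKM in wild-type mice 1, 2 and 3, so each label matched its genotype. The labels call the mice male, but *Xist*, the RNA of the inactive X chromosome, was at 20.2 to 33.6 FPKM in the 6 libraries, and all 28 loci of the Y chromosome were at 0 in every library. This held for both genotypes. Adipocyte markers were at 28490 to 33760 summed FPKM in transgenic and 24630 to 30570 in wild-type mice, and 0 of the 7 were higher and 2 lower. Brown adipocyte markers summed to 4998 to 6391 FPKM in the transgenic mice but 549.5 to 965 FPKM in the controls, with 4 of 5 higher in transgenic iWAT and none at 0, and their part in the results that follow was not tested. In a bulk tissue, a change in the number of cells of a type and a change in RNA per cell cannot be told apart. Relative depth was estimated from the steps between low FPKM values and set to 1 in wild-type mouse 3. It was 0.714, 1.14 and 0.692 for transgenic mice 1, 2 and 3, with 0.943 and 1.41 for wild-type mice 1 and 2. The step used held 12.3% to 15.3% of the low values, and the estimate was not checked against read counts.

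In the TCA cycle, acetyl-CoA is joined to oxaloacetate and oxidised step by step inside mitochondria, which yields CO2, a nucleotide triphosphate and the reduced carriers that feed the respiratory chain. Pyruvate enters through a carrier in the inner membrane and is turned into acetyl-CoA by the pyruvate dehydrogenase complex, which kinases switch off and phosphatases switch on, or into oxaloacetate by pyruvate carboxylase. Brown and beige adipocytes are rich in mitochondria and oxidise fuel to make heat, whereas white adipocytes hold few mitochondria and use pyruvate carboxylase to supply carbon for fat synthesis.

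Most of the pathway was higher in transgenic iWAT. Of the 35 genes, 28 rose and 1 fell at an adjusted p under 0.05 (limma on log2(FPKM + 1), Benjamini-Hochberg adjustment over all 11692 tested loci), and 6 passed in neither direction. Across all tested loci the corresponding shares were 11.6% higher and 7.03% lower. A rise that was also at least 2-fold in mean FPKM was seen for 22 of the 35, against 3.53% of all tested loci. The median log2 fold change was 1.13 over the 35 genes and -0.01 over all tested loci. All 35 passed the filter on low values, and *Me3* passed only through its transgenic mean, so it had to differ. Without *Me3*, 27 of 34 genes were higher, 21 of them at least 2-fold, and the median was 1.12. All 3 transgenic mice were above all 3 wild-type mice for 29 of the 35 (28 of the 34 without *Me3*), against 22.8% of all tested loci. The 35 genes together took 2.59%, 2.10% and 2.33% of the summed FPKM of transgenic mice 1, 2 and 3, and 1.15%, 1.13% and 1.12% in wild-type mice 1, 2 and 3. That share was 2.34% ± 0.242 in transgenic and 1.13% ± 0.017 in wild-type iWAT (SD, n = 3 each). For any single gene, the smallest two-sided p that exact permutation of 3 against 3 mice allows is 0.1. The plot of FPKM by mouse shows each gene on its own line.

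**Figure D1:**
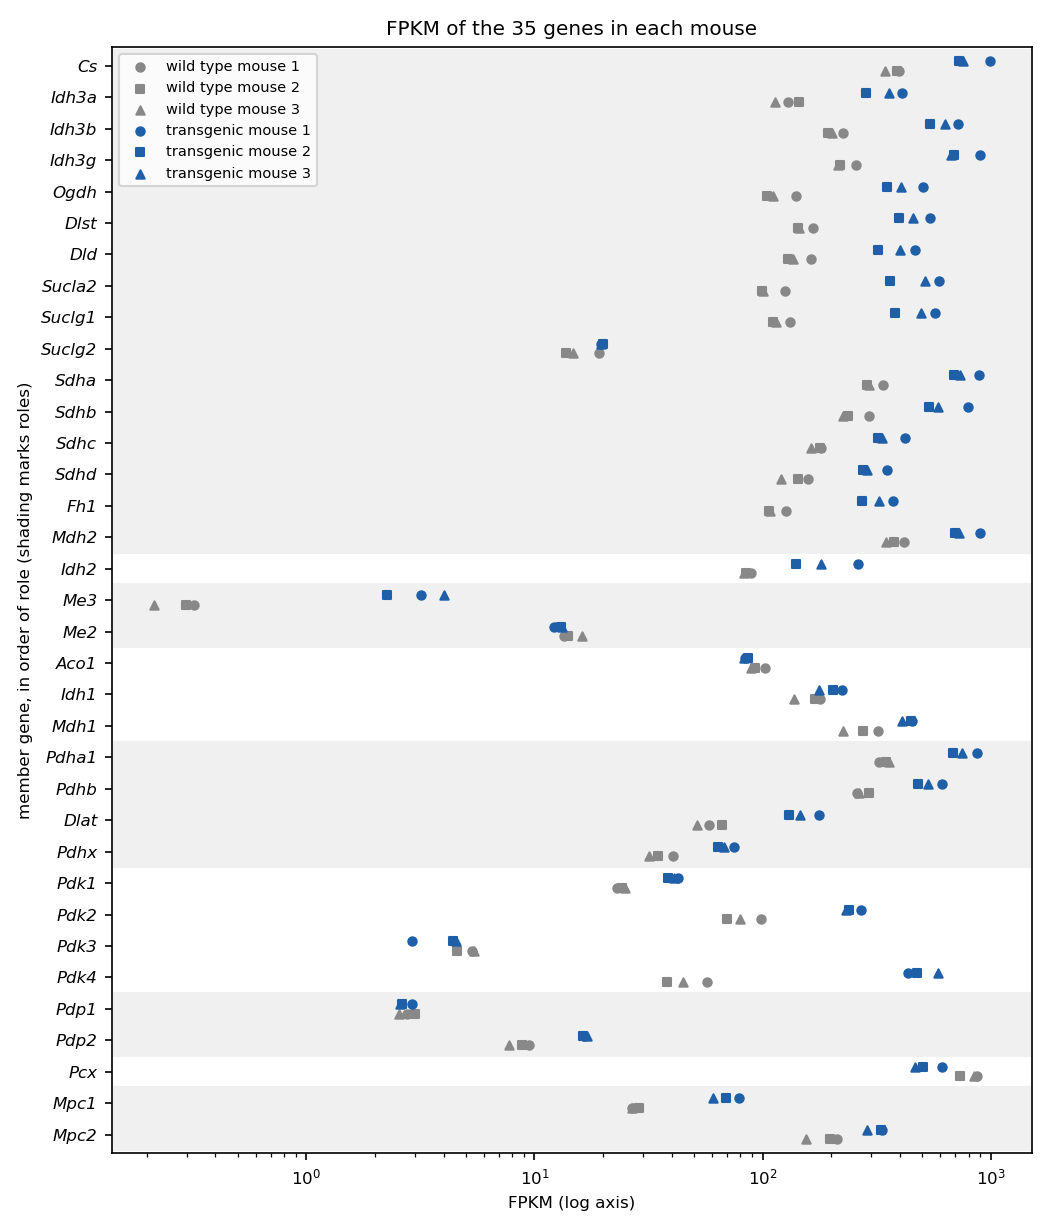
FPKM of each of the 35 genes (log axis) in the 3 wild-type mice (grey) and the 3 transgenic mice (blue), with 1 symbol per mouse and shading to mark roles. The blue symbols lie to the right of the grey ones for 29 genes, to the left for *Me2*, *Aco1*, *Pdk3* and *Pcx*, and the genotypes overlap for *Idh1* and *Pdp1*. Of the genes to the left, only *Pcx* was called lower, and the share of all tested loci lower without overlap was not computed.

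The DNA before the RefSeq start of 4 of these genes is shown because they stand for the patterns that follow. *Pdk4* had the largest log2 fold change of the 35, *Sucla2* and *Suclg2* are alternative subunits of 1 enzyme of which only *Sucla2* passed the test, and *Mdh2* is a cycle enzyme whose stretch holds the letters of a cyclic AMP response element (CRE). Each sequence is the 250 bases before the RefSeq transcription start (GRCm38.p6, the build also called mm10), read 5′ to 3′ on the gene's strand, and capitals mark a motif that was searched for.
Pdk4 (chr6:5496279-5496528, minus strand): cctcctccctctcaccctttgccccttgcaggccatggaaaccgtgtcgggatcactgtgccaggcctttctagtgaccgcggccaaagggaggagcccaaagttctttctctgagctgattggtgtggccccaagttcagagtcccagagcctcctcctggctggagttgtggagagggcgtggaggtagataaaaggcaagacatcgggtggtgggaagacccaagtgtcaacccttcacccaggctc
Sucla2 (chr14:73552536-73552785, plus strand): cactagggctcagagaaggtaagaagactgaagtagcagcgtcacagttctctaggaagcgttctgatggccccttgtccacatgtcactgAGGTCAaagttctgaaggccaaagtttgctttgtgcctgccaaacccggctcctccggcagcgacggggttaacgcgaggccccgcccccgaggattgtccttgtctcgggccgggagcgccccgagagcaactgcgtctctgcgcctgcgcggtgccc
Suclg2 (chr6:95718847-95719096, minus strand): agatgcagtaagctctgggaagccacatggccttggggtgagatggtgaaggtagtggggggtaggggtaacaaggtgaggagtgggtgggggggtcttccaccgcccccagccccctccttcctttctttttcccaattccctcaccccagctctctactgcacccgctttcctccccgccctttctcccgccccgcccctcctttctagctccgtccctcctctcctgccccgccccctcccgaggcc
Mdh2 (chr5:135778399-135778648, plus strand): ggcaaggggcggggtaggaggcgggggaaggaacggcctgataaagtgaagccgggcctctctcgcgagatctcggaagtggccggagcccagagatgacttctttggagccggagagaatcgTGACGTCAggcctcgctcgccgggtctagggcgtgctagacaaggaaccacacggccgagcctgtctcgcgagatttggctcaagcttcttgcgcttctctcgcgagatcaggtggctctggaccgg
The capitals in *Sucla2* are the nuclear receptor half-site AGGTCA, whose first base is at -159 from the start, and those in *Mdh2* are the CRE, TGACGTCA, whose first base is at -127. Other annotations start earlier. The listed locus of *Mdh2* starts at 135778481 and its GENCODE gene at 135778480, both before the CRE. The GENCODE gene of *Sucla2* starts at 73525319, before its whole stretch.

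Windows of 300 bases, from 250 before to 50 after the start, were held by RefSeq for 31 of the 35 genes, 41 windows in all. Each motif was searched on both strands. The CRE letters TGACGTCA were found in 4 of the 41 windows (9.8%) and in 1.79% of all 32851 windows of that length, but the 4 windows belong to only 2 genes, *Mdh2* and *Ogdh*, and 3 of them are overlapping windows of *Ogdh* that share 1 site. The half-site AGGTCA was in 8 windows (19.5%, against 16.3% of all windows), 1 each of *Fh1*, *Idh3g*, *Mpc1*, *Ogdh*, *Pcx*, *Sdhb*, *Sdhd* and *Sucla2*. The estrogen-related receptor half-site TNAAGGTCA, which contains AGGTCA, was in 1 window (2.4%, against 1.28%), that of *Sdhd*. NRF1 core letters, GCGCATGCG, were in 2 overlapping windows of *Ogdh* (4.9%, against 1.75%), and ETS letters, CCGGAAGT, in 1 window of *Dlst* (2.4%, against 3.89%). The AGGTCA letters occur both in genes that rose and in *Pcx*, which fell. These are matches of letters in these windows only, and binding was not measured.

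Of the 16 genes for enzymes of the cycle proper, 15 rose, with ratios of mean FPKM between 2.03 and 4.52 and log2 fold changes between 1.01 and 2.14 (limma adjusted p between 0.00077 and 0.00421). The 16 genes took 1.74%, 1.34% and 1.52% of the summed FPKM of the transgenic mice and 0.631%, 0.607% and 0.591% of that of the wild-type mice. The remaining gene was *Suclg2*.

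*Cs*, citrate synthase, which joins acetyl-CoA to oxaloacetate, rose from 376 ± 29.0 FPKM in wild-type to 825 ± 148 FPKM in transgenic iWAT (SD, n = 3 each), or by 1.12 on the log2 scale (limma adjusted p = 0.00414). The genes for the 3 subunits of NAD-dependent isocitrate dehydrogenase, the first oxidative step of the cycle, all rose, with log2 fold changes of 1.43 for *Idh3a*, 1.59 for *Idh3b* and 1.70 for *Idh3g*. *Idh3a*, the catalytic subunit, rose from 129 ± 15.5 to 350.2 ± 61.8 FPKM (SD, n = 3 each). *Idh3b*, a regulatory subunit, rose from 207 ± 16.1 to 630.1 ± 87.5 FPKM (SD, n = 3 each). *Idh3g*, the other regulatory subunit, was at 901, 691 and 668 FPKM in transgenic mice 1, 2 and 3 and at 257, 219 and 215 FPKM in wild-type mice 1, 2 and 3. Its lowest transgenic value was well above its highest wild-type value (log2 fold change 1.70 ± 0.15 SE, limma adjusted p = 0.000935).

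The oxoglutarate dehydrogenase complex oxidises 2-oxoglutarate to succinyl-CoA, and its 3 genes rose by log2 fold changes of 1.46 to 1.82. *Ogdh*, its first subunit, was at 508, 351 and 403 FPKM in the transgenic mice and at 139.6, 105 and 111 FPKM in the wild-type mice. The genotypes did not overlap, and the log2 fold change was 1.82 (SE 0.17, limma adjusted p = 0.00113). *Dlst*, the succinyltransferase core, rose from 151 ± 13.7 to 464 ± 72.5 FPKM, and *Dld*, the dihydrolipoamide dehydrogenase shared with the pyruvate dehydrogenase complex, rose from 143 ± 17.98 to 397 ± 73.1 FPKM (SD, n = 3 each).

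Succinyl-CoA ligase, which makes succinate and a nucleotide triphosphate, has a common alpha subunit encoded by *Suclg1* and a beta subunit that sets the nucleotide, ADP with *Sucla2* and GDP with *Suclg2*. *Sucla2* (chr14:73552727-73596142) was at 593, 364 and 513 FPKM in transgenic mice 1, 2 and 3 and at 126, 99.5 and 100.2 FPKM in wild-type mice 1, 2 and 3. *Suclg1* was at 569, 380.1 and 494 FPKM in the transgenic and at 132, 111 and 114 FPKM in the wild-type mice. Every transgenic value of these genes was at least 2-fold above every wild-type value. *Sucla2* rose by 2.14 on the log2 scale (SE 0.20, limma adjusted p = 0.00104) and *Suclg1* by 1.99 (SE 0.16, limma adjusted p = 0.00077), the largest rises among the cycle enzymes. *Suclg2* (chr6:95460358-95718854) was at 19.6, 20.1 and 19.6 FPKM in the transgenic and at 19.2, 13.7 and 14.7 FPKM in the wild-type mice. The transgenic values of *Suclg2* were close together and just above wild-type mouse 1, and its log2 fold change of 0.31 did not pass (SE 0.12, limma adjusted p = 0.117). Without wild-type mouse 1 its log2 fold change was 0.45 and the adjusted p 0.0226. *Suclg2* has a near copy, *Gm15163*, elsewhere in the genome, so its reads may be split between the loci.

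The ratio of *Sucla2* to *Suclg2* FPKM within a mouse was 30.2, 18.1 and 26.2 in transgenic mice 1, 2 and 3 but 6.55, 7.27 and 6.80 in wild-type mice 1, 2 and 3. It did not overlap between genotypes, and the log2 ratio of FPKM + 1 differed by 1.83 (two-sided exact permutation test, p = 0.1, the smallest that 3 against 3 allows; adjusted over 7 pairs of genes, p = 0.1).

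Succinate dehydrogenase is both an enzyme of the cycle and complex II of the respiratory chain, and its 4 genes rose by log2 fold changes of 1.03 to 1.33. *Sdha*, the flavoprotein that oxidises succinate, rose from 306 ± 27.0 to 772 ± 103 FPKM, and *Sdhb*, the iron-sulphur subunit, from 252 ± 35.3 to 640.1 ± 138 FPKM (SD, n = 3 each). *Sdhc* and *Sdhd*, the membrane anchors, rose from 174 ± 9.58 to 359 ± 55.2 FPKM and from 141 ± 18.8 to 304 ± 40.0 FPKM (SD, n = 3 each). *Fh1*, fumarase, which hydrates fumarate to malate, rose from 114 ± 11.4 to 324 ± 51.1 FPKM (SD, n = 3 each; log2 fold change 1.49, limma adjusted p = 0.00113).

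Malate dehydrogenase exists as a mitochondrial form, *Mdh2*, which closes the cycle, and a cytosolic form, *Mdh1*, which exchanges reducing power with it. *Mdh2* was at 894, 699 and 725 FPKM in transgenic mice 1, 2 and 3 and at 418, 376 and 349 FPKM in wild-type mice 1, 2 and 3, and rose by 1.01 on the log2 scale (SE 0.14, limma adjusted p = 0.00421). *Mdh1* was at 454, 448 and 409 FPKM in the transgenic and at 319, 276 and 225 FPKM in the wild-type mice. It did not overlap either and rose by 0.69 (SE 0.14, limma adjusted p = 0.0198), but its call was lost in 5 of 14 alternative fits, with an adjusted p up to 0.0697. Leaving out transgenic mouse 1 or 3 or wild-type mouse 2 brought the adjusted p to 0.0571, 0.0521 and 0.0575, and quantile normalization lowered the log2 fold change itself to 0.35 (adjusted p = 0.0691). The *Mdh2* to *Mdh1* ratio was 1.97, 1.56 and 1.77 in the transgenic and 1.31, 1.36 and 1.55 in the wild-type mice. These ranges almost touched, and the log2 ratio of FPKM + 1 differed by 0.32 (exact permutation test, p = 0.1).

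**Figure D2:**
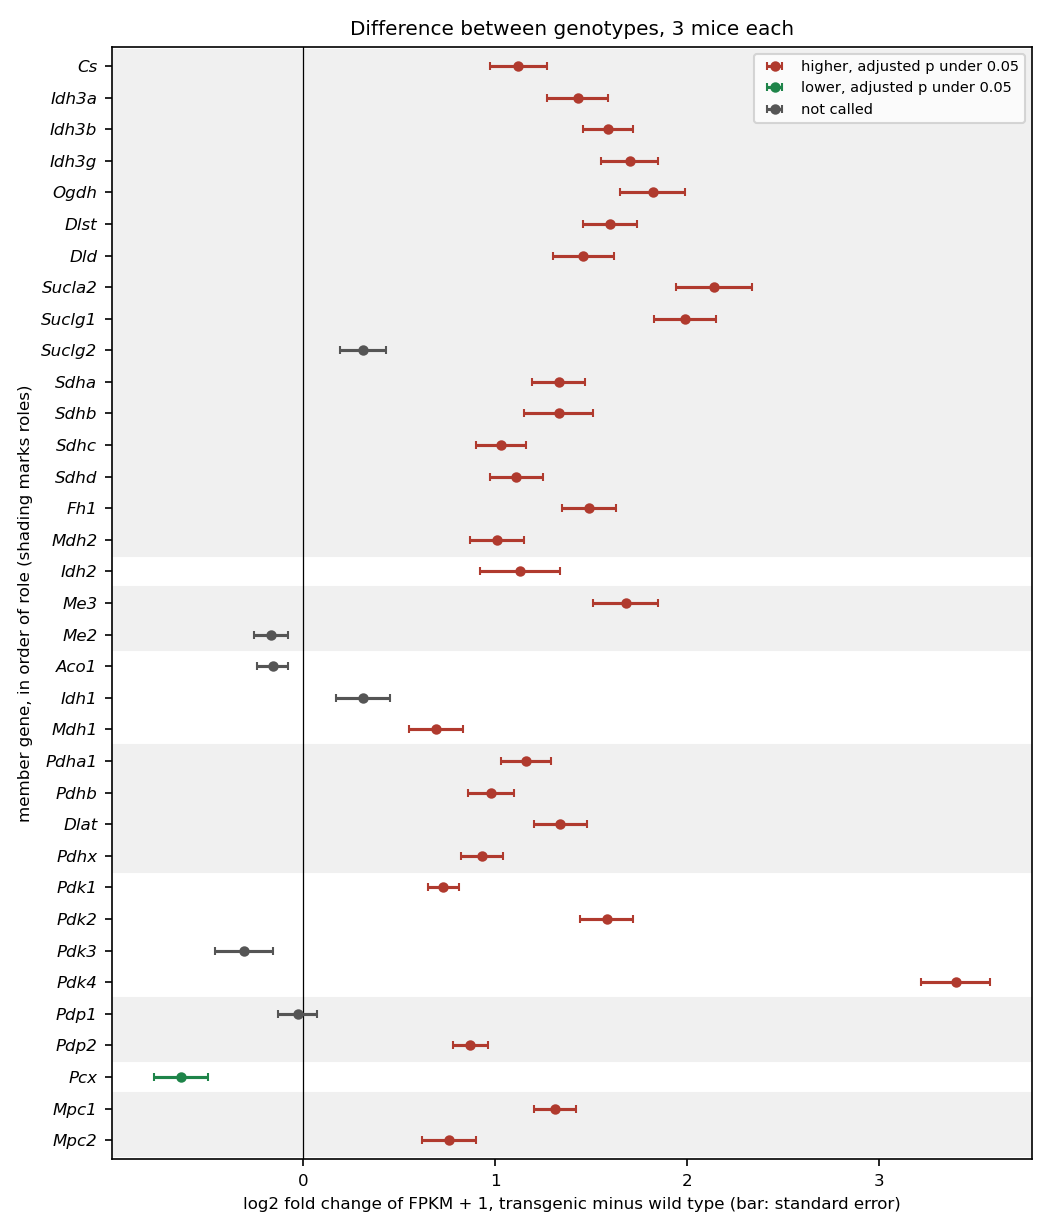
Log2 fold change of FPKM + 1 (transgenic minus wild type, 3 mice each) for the 35 genes, with standard errors as bars. Red marks the 28 genes called higher, green the 1 called lower, *Pcx*, and grey the 6 not called, and *Pdk4* lies farthest to the right at 3.40.

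Next to the cycle proper stand isozymes of the mitochondrion and the cytosol. NADP-dependent isocitrate dehydrogenase makes NADPH, in mitochondria from *Idh2* and in the cytosol from *Idh1*. *Idh2* was at 263, 141 and 180.2 FPKM in the transgenic and at 88.8, 84.7 and 82.7 FPKM in the wild-type mice. It was higher in each transgenic mouse with a wide spread (log2 fold change 1.13 ± 0.21 SE, limma adjusted p = 0.0127), and with no filter on low values its adjusted p was 0.0704. *Idh1* was at 224, 204 and 177 FPKM in the transgenic and at 179, 170.5 and 137 FPKM in the wild-type mice. Transgenic mouse 3 lay below wild-type mouse 1, and the log2 fold change of 0.31 did not pass (limma adjusted p = 0.154). The *Idh2* to *Idh1* ratio was 1.18, 0.69 and 1.02 in the transgenic and 0.495, 0.497 and 0.602 in the wild-type mice, a difference in log2 ratio of 0.82 without overlap (exact permutation test, p = 0.1). *Aco1*, cytosolic aconitase, which also binds iron-responsive RNA elements, averaged 84.3 ± 1.69 FPKM in the transgenic mice against 94.6 ± 6.89 FPKM in the controls (SD, n = 3 each), and its log2 fold change of -0.16 did not pass (limma adjusted p = 0.208). With quantile normalization it was -0.26, with an adjusted p of 0.0363.

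Mitochondrial malic enzymes turn malate into pyruvate, *Me3* with NADP and *Me2* with NAD. *Me3* (chr7:89632818-89854359) was at 3.18, 2.25 and 4.03 FPKM in transgenic mice 1, 2 and 3 and at 0.323, 0.297 and 0.215 FPKM in wild-type mice 1, 2 and 3. Its ratio of mean FPKM was 11.3, the highest of the 35 genes, from a level that remained low, and its log2 fold change was 1.68 on the FPKM + 1 scale and 3.08 with a pseudocount of 0.1. The filter on low values let it through by its transgenic mean alone. With a filter on the mean of the 6 mice, its adjusted p was 0.00171 (limma). That filter does not use the genotype labels, but the wild-type values of *Me3* were all under 1 FPKM. It therefore passed that filter through its transgenic values too. With no filter its adjusted p was 0.0187 (limma). *Me2* was at 12.1, 13.0 and 13.2 FPKM in the transgenic and at 13.5, 14.0 and 16.1 FPKM in the wild-type mice. All of its transgenic values were below its wild-type values, but the log2 fold change of -0.17 did not pass (limma adjusted p = 0.222). *Me2* thus had the higher level in every mouse, with a *Me3* to *Me2* ratio of 0.262, 0.173 and 0.305 in the transgenic and 0.0239, 0.0213 and 0.0133 in the wild-type mice. The log2 ratio of FPKM + 1 differed by 1.85, and by 3.26 with a pseudocount of 0.1 (exact permutation test, p = 0.1 for both). An antisense gene shares 3.9% of the exonic bases of *Me3*, and the library kit does not mark strand.

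At the entry of pyruvate, both carrier genes rose, and their products together form the mitochondrial pyruvate carrier. *Mpc1* was at 78.7, 69.3 and 60.8 FPKM in the transgenic and at 26.7, 28.7 and 26.8 FPKM in the wild-type mice, without overlap (log2 fold change 1.31 ± 0.11 SE, limma adjusted p = 0.00077). *Mpc2* was at 335, 330.2 and 286 FPKM in the transgenic and at 212, 198 and 155 FPKM in the wild-type mice, and rose by 0.76 (SE 0.14, limma adjusted p = 0.0133). With no filter on low values the adjusted p of *Mpc2* was 0.0578. *Mpc1* was the lower of the pair in every mouse, and its ratio to *Mpc2* was 0.235, 0.210 and 0.212 in the transgenic and 0.126, 0.145 and 0.173 in the wild-type mice. The log2 ratio of FPKM + 1 differed by 0.55, without overlap (exact permutation test, p = 0.1). A noncoding gene on the opposite strand, *4930506C21Rik*, shares 23.1% of the exonic bases of *Mpc1*, and reads of the pair cannot be told apart by strand.

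The pyruvate dehydrogenase complex, which makes acetyl-CoA from pyruvate, was higher in each of its 5 genes. *Pdha1*, the alpha subunit of its first enzyme and the site of its phosphorylation, was at 875, 682 and 751 FPKM in transgenic mice 1, 2 and 3 and at 323, 349 and 358 FPKM in wild-type mice 1, 2 and 3. Each transgenic mouse was above each wild-type mouse, and the log2 fold change was 1.16 (SE 0.13, limma adjusted p = 0.00204). *Pdhb*, the beta subunit, rose from 272 ± 17.4 to 541 ± 66.5 FPKM, *Dlat*, the acetyltransferase core, from 58.7 ± 7.47 to 151 ± 24.1 FPKM, and *Pdhx*, which binds *Dld* to that core, from 35.7 ± 4.38 to 68.9 ± 5.61 FPKM (SD, n = 3 each). With *Dld* counted, the log2 fold changes of the complex ran from 0.93 to 1.46. *Map3k15*, on the opposite strand, shares 16.1% of the exonic bases of *Pdha1*, and *Pdhb* has a near copy, *Gm6123*, so values of these genes are less certain than those of *Dlat* and *Pdhx*.

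The kinases that phosphorylate and switch off the complex held the largest log2 fold change. *Pdk4* (chr6:5483351-5496278), the kinase known to be raised by fasting and by fatty acids, was at 434, 477 and 589.8 FPKM in transgenic mice 1, 2 and 3 and at 57.1, 38.2 and 44.8 FPKM in wild-type mice 1, 2 and 3. All transgenic mice were far above all wild-type mice, with a ratio of mean FPKM of 10.7 and a log2 fold change of 3.40 (SE 0.18, limma adjusted p = 0.000231), and leaving out any 1 mouse kept it between 3.27 and 3.55. *Pdk2*, the most widely expressed kinase of the family, was at 269.7, 239 and 233 FPKM in the transgenic and at 98.2, 69.6 and 79.8 FPKM in the wild-type mice (log2 fold change 1.58 ± 0.14 SE, limma adjusted p = 0.000935). *Pdk1*, a target of hypoxia signalling, was at 42.6, 38.6 and 40.8 FPKM in the transgenic and at 22.9, 24.2 and 25.0 FPKM in the wild-type mice. Neither gene overlapped between genotypes, and *Pdk1* rose by 0.73 (SE 0.08, limma adjusted p = 0.00168). *Pdk3*, the remaining kinase, was at 2.92, 4.41 and 4.54 FPKM in the transgenic and at 5.32, 4.56 and 5.41 FPKM in the wild-type mice. Its highest transgenic value was just under its lowest wild-type value, and its log2 fold change of -0.31 did not pass (SE 0.15, limma adjusted p = 0.181) and was -0.15 without transgenic mouse 1.

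The order of the kinases was *Pdk2*, *Pdk4*, *Pdk1* and *Pdk3* by FPKM in each wild-type mouse and *Pdk4*, *Pdk2*, *Pdk1* and *Pdk3* in each transgenic mouse. *Pdk4* made up 58.0%, 62.8% and 68.0% of the summed kinase FPKM in transgenic mice 1, 2 and 3 but 31.1%, 28.0% and 28.9% in wild-type mice 1, 2 and 3. *Pdk2* made up 36.0%, 31.5% and 26.8% in the transgenic and 53.5%, 50.9% and 51.5% in the wild-type mice. *Pdk4* to *Pdk2* was 1.61, 1.99 and 2.53 in the transgenic and 0.581, 0.549 and 0.562 in the wild-type mice, so it was above 1 in every transgenic mouse and below 1 in every wild-type mouse, and its log2 ratio of FPKM + 1 differed by 1.82 (exact permutation test, p = 0.1). Kinase transcripts took 0.138%, 0.148% and 0.172% of the summed FPKM in the transgenic and 0.035%, 0.029% and 0.033% in the wild-type mice.

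**Figure D3:**
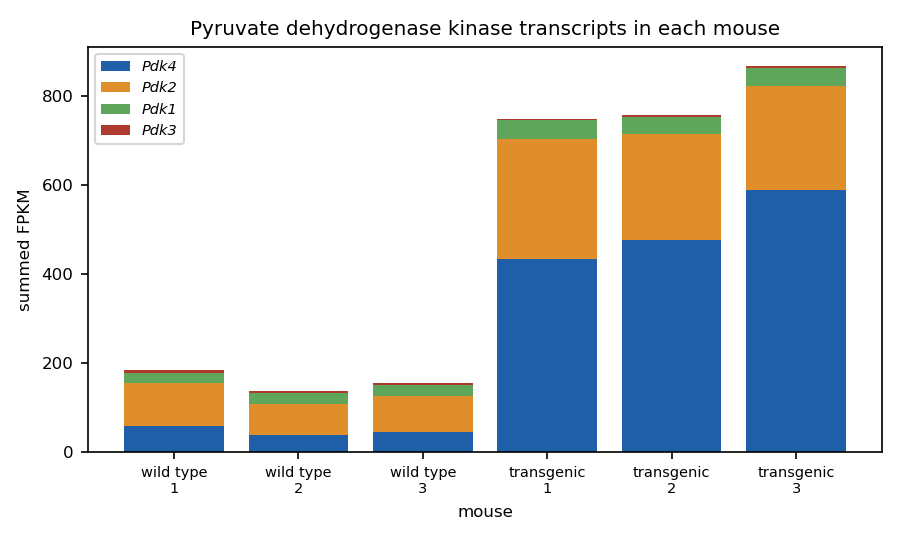
Summed FPKM of the 4 pyruvate dehydrogenase kinase genes in each of the 6 mice, with 1 colour per gene. *Pdk2* is the tallest segment in the 3 wild-type mice and *Pdk4* in the 3 transgenic mice, where it reaches 434 to 589.8 FPKM.

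Phosphatases that reactivate the complex had lower levels than *Pdk1*, *Pdk2* or *Pdk4* in every mouse. *Pdp2*, whose listed locus also spans 4 other coding genes, was at 16.4, 16.3 and 17.1 FPKM in transgenic mice 1, 2 and 3 and at 9.46, 8.85 and 7.73 FPKM in wild-type mice 1, 2 and 3, without overlap (log2 fold change 0.87 ± 0.09 SE, limma adjusted p = 0.00161). The calcium-stimulated form *Pdp1* was at 2.91, 2.63 and 2.56 FPKM in the transgenic and at 2.77, 3.00 and 2.56 FPKM in the wild-type mice. Its genotypes overlapped, and its log2 fold change of -0.03 did not pass (SE 0.10, limma adjusted p = 0.846) and turned to 0.01 with quantile normalization or without wild-type mouse 2.

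*Pcx*, pyruvate carboxylase, which makes oxaloacetate from pyruvate, was the 1 gene that fell. *Pcx* (chr19:4510164-4698668, a listed locus that spans 3 other coding genes) was at 609, 506 and 466 FPKM in transgenic mice 1, 2 and 3 and at 872, 736 and 844 FPKM in wild-type mice 1, 2 and 3. The highest transgenic value was below the lowest wild-type value, from a mean of 817 ± 71.8 FPKM in wild-type to 527 ± 74.0 FPKM in transgenic iWAT (SD, n = 3 each), and the log2 fold change came to -0.64 (SE 0.14, limma adjusted p = 0.0248). By level it ranked 1 of the 35 in wild-type and 9 of the 35 in transgenic iWAT. Its log2 fold change was between -0.75 and -0.55 whichever mouse was left out, but the call was lost in 5 of 14 alternative fits. The adjusted p was 0.0567 and 0.0864 without transgenic mouse 2 or 3, 0.0671 and 0.0817 without wild-type mouse 1 or 3, and 0.0808 with no filter on low values. Its unadjusted limma p was at most 0.0143 in all 14.

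*Pcx* and *Pdha1* stand for the alternative fates of pyruvate in the mitochondrion, oxaloacetate and acetyl-CoA. Their ratio was 0.696, 0.742 and 0.620 in the transgenic and 2.70, 2.11 and 2.36 in the wild-type mice, so *Pcx* was the higher in every wild-type mouse and *Pdha1* in every transgenic mouse. Its log2 ratio of FPKM + 1 differed by -1.79 (exact permutation test, p = 0.1). In each of the 7 pairs compared, the ratio did not overlap between genotypes. Each gave an adjusted exact p of 0.1, which is the smallest this design allows. The pairs were chosen with earlier results of these data known, and *Me3* passed the filter only through its transgenic mean. The share of other gene pairs without overlap was not computed, so no conclusion is drawn from the count of pairs.

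**Figure D4:**
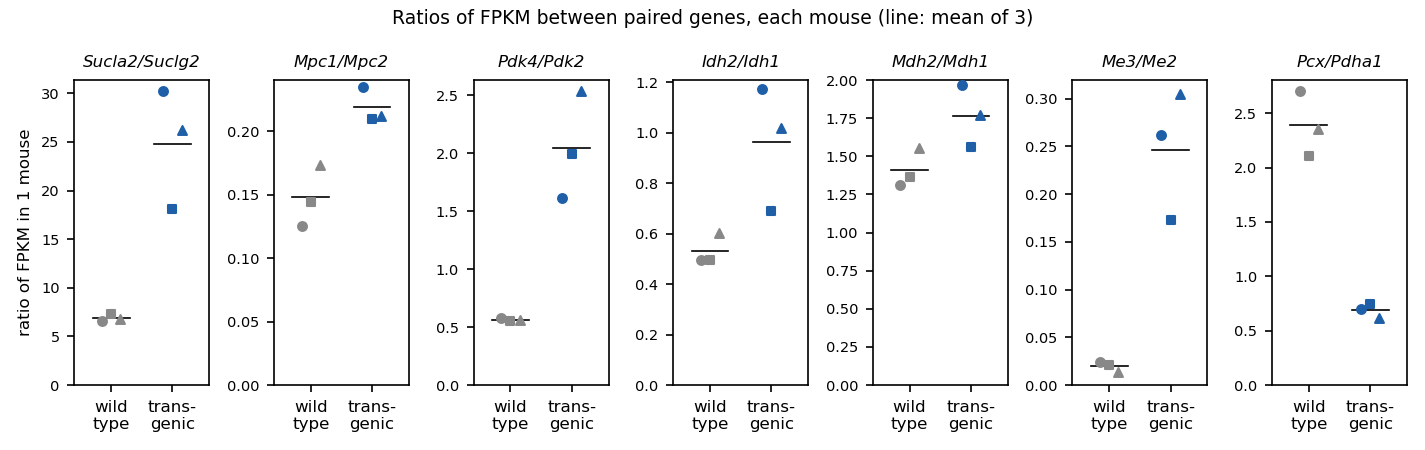
Ratio of FPKM between the genes of 7 pairs in each mouse (linear axes from 0; grey, 3 wild-type mice; blue, 3 transgenic mice; line, mean). The ratio is higher in transgenic mice for the first 6 pairs and lower for *Pcx* to *Pdha1*, where it is 0.620 to 0.742 against 2.11 to 2.70.

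Within the transgenic genotype, the order of the mice was alike for many of the genes. Transgenic mouse 1 had the highest of the 3 transgenic values for 28 of the 35 genes (80.0%, against 43.2% of all tested loci), and transgenic mouse 2 the lowest for 22 (62.9%, against 34.4%), all of them among the genes called higher. *Pdk4*, *Me3* and *Pdp2* were the called genes in which transgenic mouse 3 was highest. Among controls, wild-type mouse 1 had the highest value for 26 of the 35 (74.3%, against 38.8%). Median-ratio scaling of the libraries left each of these counts as it was. Transgenic mouse 2 also had the most skeletal muscle RNA, with 670 summed FPKM over 9 muscle markers against 93.5 and 133 in transgenic mice 1 and 3 and 7.64, 141 and 39.3 in wild-type mice 1, 2 and 3. Of those markers 0 of 9 were called, 2 had an unadjusted limma p under 0.05, and 1 was at 0 in a library. Without transgenic mouse 2, the count of genes called higher was again 28 of 35 and their median log2 fold change over the 35 was 1.24. Macrophage markers moved the other way, at 94.5 to 119 summed FPKM in transgenic and 154 to 198 in wild-type mice, with 4 of 6 lower and none at 0, and their part in these results was not tested. Of the marker lists of other cell types, 1 of 7 lymphocyte genes was lower, 1 of 5 endothelial genes was higher and 1 lower, and 0 of 5 epithelial and 0 of 6 fibroblast genes were called (limma, with 1 and 2 of them at an unadjusted p under 0.05). The 1 erythroid marker in the table, *Alas2*, was higher, at 6.58 to 9.29 FPKM in transgenic and 2.72 to 4.53 FPKM in wild-type mice, and its part in these results was not tested either.

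Genes next to the pathway were taken from a list of 33, of which 30 were tested. Of these 30, 13 were higher and 2 lower at an adjusted p under 0.05 (limma), beside 11.6% higher and 7.03% lower of all tested loci, so the count lower is near the background. At least 2-fold higher were 4 of the 30, and the median log2 fold change was 0.34. *Ldhb*, the lactate dehydrogenase subunit found in oxidative tissues, rose by 1.81, *Acss1*, mitochondrial acetyl-CoA synthetase, by 1.73, and *Ldhd*, D-lactate dehydrogenase, by 1.54 on the log2 scale (limma adjusted p of 0.000418, 0.000231 and 0.00153). *Acly*, which splits citrate in the cytosol, rose by 0.89 and *Sdhaf3*, an assembly factor of succinate dehydrogenase listed as *Acn9*, by 0.76 (limma adjusted p of 0.0396 and 0.035). *Acly* was called in only 6 of 14 alternative fits (adjusted p up to 0.177) and lost its call when any mouse but wild-type mouse 2 was left out, and *Sdhaf3* was called in 8 of 14 (adjusted p up to 0.125) and lost its call without any mouse but transgenic mouse 3. Lower were *Nnt*, the transhydrogenase that makes mitochondrial NADPH, at 2.86, 3.57 and 2.98 FPKM in the transgenic and 6.03, 5.17 and 5.996 FPKM in the wild-type mice, and *Gpt2*, a mitochondrial alanine aminotransferase (log2 fold changes of -0.70 and -0.59, limma adjusted p of 0.00585 and 0.0293). *Nnt* was called in all 14 fits, whereas *Gpt2* was called in 9 (adjusted p up to 0.0984) and lost its call without transgenic mouse 2 or 3 or wild-type mouse 1 or 2. The line came from C57BL/6 and SJL hybrid embryos, and whether a strain difference at *Nnt* plays a part was not tested.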

How the data were processed

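RNA was extracted from iWAT of 3 mice of each genotype, and TruSeq v2 libraries were read on an Illumina HiSeq as single-end reads of 100 bases. The submitters' processing notes name CASAVA 1.8.2, TopHat2 2.0.9, Bowtie2 2.1.0, Cufflinks 2.2.1 and the mm10 genome. The authors deposited FPKM per gene locus and mouse, a density scaled by transcript length and mapped reads of that library. Depth in reads is unknown, since no counts were used. The kit does not mark strand.

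From these values log2(FPKM + 1) was computed, which understates changes of low genes. Where either genotype had a mean FPKM over 1, a locus was tested (11692 of 19445) with limma 3.58.1 in R 4.3.3 (lmFit, eBayes with trend, two-sided, Benjamini-Hochberg adjustment over all tested loci, no covariates), after the procedure was tested on simulated data. Ratios of FPKM + 1 in 7 gene pairs were compared with a two-sided exact permutation test. The members, lists, pairs and rule for named genes were chosen with earlier results of these data known. Values are given in every mouse for the 6 largest rises, the falls, the paired genes and all kinases and phosphatases. Of the other pathway genes, 1 that the rule names is not reported here. Locus starts were raised by 1 to count from 1, since for 13 members RefSeq's start was the listed start plus 1. Overlaps came from GENCODE M21, and near copies from BLAST 2.17.0 (at least 95% identity over 500 bases). Of the 35 listed loci, 12 also hold another coding gene, *Pdp2* with 4, *Pcx* with 3, and *Idh3g* and *Dlst* with 2 each. The others are *Cs*, *Idh3a*, *Idh3b*, *Fh1*, *Pdha1*, *Pdhb*, *Pdk2* and *Mpc2*, with 1 each.

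The 14 alternative fits used a pseudocount of 0.1, sample quality weights, a filter on the mean over the 6 mice or no filter, eBayes with no trend, a block for the replicate number, median-ratio scaling or quantile normalization, or left out 1 mouse at a time. Stricter calls were also tried.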

Additional observations from a re-analysis of the deposited data

How the results depend on the processing

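Over the 14 alternative fits, between 25 and 29 of the 35 genes were higher, and 22 with a 2-fold ratio also required. Of the 29 called genes, 25 were called in all 14 fits, the exceptions being *Idh2*, *Mdh1*, *Mpc2* and *Pcx*. The count lower, 1 as reported, was 0 with no filter, at an adjusted p under 0.01 and with a 2-fold ratio, 2 with quantile normalization (*Pcx* and *Aco1*), and 0 to 1 with each mouse left out. The median log2 fold change of 1.13 was 0.86 with quantile normalization, and *Mdh2*, *Pdhb* and *Mpc2* were then at 0.66, 0.64 and 0.47 and still called, *Mdh1* at 0.35 and *Idh1* at 0.03 and not called. For the other pathway genes, the 13 higher were 7 at an adjusted p under 0.01, 4 with a 2-fold ratio and 8 to 11 with each mouse left out (8 without wild-type mouse 3), and the 2 lower were 1 with no filter, 1 at an adjusted p under 0.01, 0 with a 2-fold ratio and 1 to 3 with each mouse left out (1 without transgenic mouse 3 or wild-type mouse 1 or 2, 3 without transgenic mouse 1). *Pdp1*, at -0.03, was 0.01 with quantile normalization and between -0.07 and 0.01 with each mouse left out. Stricter calls lower these counts by their construction, and for the others the cause was not tested. The ratios of the 7 pairs kept their direction with each mouse left out and with a pseudocount of 0.1, where *Me3* to *Me2* moved from 1.85 to 3.26. Same-numbered mice did not deviate together (correlations of 0.013, 0.034 and 0.070, against -0.186 to 0.135 for mice of different numbers). With 3 mice per genotype, this cannot show whether the numbers mark litters or batches. With the replicate number as a block, 28 of the 35 genes were higher and 1 lower, while *Acly* lost its call (limma adjusted p = 0.0800). Low FPKM values, as for *Me3*, *Pdk3* and *Pdp1*, are the least precise, most so in transgenic mice 1 and 3, which had the lowest estimated relative depth.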
